A study of Mus musculus with 6 samples.

Results

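A zinc finger gene cluster on mouse chromosome 13 held 670 of the 202553 regions at which H3K9me3 was counted in a thigh muscle, the quadriceps femoris, of mice labelled Prr14-WT or Prr14-KO. The members are all regions of the deposited table that start at or after 62000000 and end by 68000000 (GRCm38), whatever gene they are assigned to. The interval was chosen by the knockout and wild-type counts themselves, because those near Zfp997 and Gm10772 were lower in the knockouts, so the values by genotype below are a description and carry no test of the genotype. Just outside the lower limit, the region at 61979576 to 61980311 had a log2 ratio of knockout over wild type of 1.06. Just inside it, the region at 62021650 to 62021840 held 18, 11 and 2 wild-type and 8, 8 and 5 knockout counts, too few for a fitted ratio. At the upper limit, the last member (67997905 to 67998256) was also too low to fit, and the next region outside, at 68015449 to 68015852, had a log2 ratio of -0.27.

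H3K9me3, trimethylation of lysine 9 of histone H3, is a mark of silent chromatin. Genes for zinc finger proteins with a KRAB domain lie in clusters of recent tandem copies, often beside copies of olfactory and vomeronasal receptor genes. KRAB domains recruit TRIM28 (KAP1), which brings the methyltransferase SETDB1 to DNA bound by the zinc fingers, and the mark is known to cover zinc finger gene clusters themselves.

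CUT&Tag with an antibody to H3K9me3 was made from frozen muscle in 6 libraries. Of Prr14-WT there were 3, replicates 3, 4 and 8, and of Prr14-KO another 3, replicates 4, 5 and 7. In CUT&Tag a transposase tethered to the antibody cuts and tags nearby DNA. Prr14 encodes a nuclear lamina protein that binds the heterochromatin protein HP1. The labels give no strain, age, sex, batch, spike-in or input library, nor the part of Prr14 that was deleted. Whether each library came from its own mouse is not stated, so the spread between libraries may be technical in part. Counts come from whole tissue, in which fewer cells carrying the mark and less of the mark per cell cannot be told apart. Without an input, counts were not set against the amount of DNA present.

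Libraries held between 4324444 and 4756133 counts over all regions. The members held 0.351%, 0.377% and 0.337% of the counts in wild-type replicates 3, 4 and 8. They held 0.384%, 0.350% and 0.301% in knockout replicates 4, 5 and 7. Fibre genes and other cell types could not check the tissue label, because a mark of silent chromatin does not measure expression. Of 10 muscle fibre genes, 7 had a region in their span, and of 6 markers of other cells, 5 had one.

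The interval holds 206 RefSeq genes (GRCm38.p6). Of these 77 are protein coding, 29 of them with a symbol starting with Zfp, and 71 are pseudogenes, 13 of them of vomeronasal receptors of the Vmn2r type. Sequences before gene starts show how alike the copies are. RefSeq windows of 300 bases around a start were given for 108 starts of 99 genes in the interval, and 24 of the 108 matched another start there over at least 85% of their bases. Between 65.2 and 67.0 Mb, 14 of 30 windows did so, and elsewhere 10 of 78. The median best match in the interval was 52.7%. A value at that level does not show a copy, since starts of genes of different families reach it. Ptch1 and Zfp367 matched at 53.3%, and Fbp2 and Zfp456 at 49.7%. The windows below are shown because the results turn on a stretch from 65.7 to 66.5 Mb, and each is printed with its nearest copy outside that stretch. Capitals mark the bases that do not align to the partner.

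Gm26715, chr13:66349156-66349455, plus strand, inside the stretch: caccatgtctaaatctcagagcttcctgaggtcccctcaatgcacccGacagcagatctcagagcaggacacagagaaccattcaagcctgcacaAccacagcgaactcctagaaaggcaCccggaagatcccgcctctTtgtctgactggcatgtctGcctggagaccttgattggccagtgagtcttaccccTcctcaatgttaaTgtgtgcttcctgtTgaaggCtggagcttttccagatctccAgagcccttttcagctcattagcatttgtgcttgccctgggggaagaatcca
Gm40985, chr13:65415019-65415318, plus strand, outside: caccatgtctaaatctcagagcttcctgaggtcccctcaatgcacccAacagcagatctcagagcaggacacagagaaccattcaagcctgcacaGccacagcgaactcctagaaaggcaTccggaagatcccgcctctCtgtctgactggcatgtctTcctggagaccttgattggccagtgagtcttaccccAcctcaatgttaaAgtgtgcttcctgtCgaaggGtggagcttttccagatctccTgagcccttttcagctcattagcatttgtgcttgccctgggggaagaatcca

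Gm10324, chr13:66113203-66113502, plus strand, inside the stretch: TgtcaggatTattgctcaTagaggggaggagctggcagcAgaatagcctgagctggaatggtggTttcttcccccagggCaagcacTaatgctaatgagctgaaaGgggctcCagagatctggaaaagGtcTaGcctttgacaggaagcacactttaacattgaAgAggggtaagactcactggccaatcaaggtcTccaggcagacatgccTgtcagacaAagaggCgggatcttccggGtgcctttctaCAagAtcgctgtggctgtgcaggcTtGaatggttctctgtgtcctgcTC
Gm19428, chr13:65557652-65557951, minus strand, outside: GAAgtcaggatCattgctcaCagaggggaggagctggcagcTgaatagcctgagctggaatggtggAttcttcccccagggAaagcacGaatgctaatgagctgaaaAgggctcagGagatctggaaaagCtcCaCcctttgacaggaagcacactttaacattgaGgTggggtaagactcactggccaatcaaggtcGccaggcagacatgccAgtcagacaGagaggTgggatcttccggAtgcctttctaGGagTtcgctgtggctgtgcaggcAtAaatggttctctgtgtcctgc

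Gm26715, a long non-coding RNA gene, and Gm40985 were identical over 96.7% of bases, with 10 differing bases in each. Gm10324 is the protein-coding RefSeq model, from 66110374 to 66123709, that spans the position of Zfp997 in the authors' annotation, and it matched Gm19428 over 90.3%. Within the stretch, 5 of 12 windows had such a match at 85% or more. They included Gm46425 (96.0% to Gm31714), Gm17353 (93.0% to Zfp640) and 2410141K09Rik, the RefSeq name at the position of Zfp998 (91.7% to Gm31714). How reads that align to several copies were assigned is not stated in the sources used, so counts at such copies are uncertain. The Gm26715 window overlapped a region at 66348342 to 66349193 with 18, 24 and 19 wild-type and 22, 12 and 5 knockout counts. The Gm40985 window overlapped a region at 65414849 to 65415083 with 12, 11 and 9 wild-type and 21, 13 and 8 knockout counts. In both regions the genotypes overlapped.

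Most members lay between genes. Intergenic regions were 67.2% of members and 68.1% of all regions of the table. Introns held 17.6% of members (22.6% of all regions), and sites within 1 kb of a start held 5.82% (3.80%). The authors assigned members to 67 gene symbols. Only 194 of the 670 members overlapped the span that the authors' annotation gives the assigned gene, so a sum by gene is a sum over its neighbourhood. The 29 symbols that start with Zfp, most of them genes for KRAB zinc finger proteins, took 249 regions.

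The highest signal of the interval lay at the start of Gm10775, a predicted gene. Its region at 65258268 to 65260302, at a distance of -254 bp from the start site, held 459, 537 and 451 wild-type and 586, 477 and 354 knockout counts. That is 102.8 ± 11.1 and 105.8 ± 22.3 CPM, read counts scaled to a library size of 1000000 after TMM scaling of library totals (SD, n = 3). The next was an intergenic region at 66601433 to 66602314, assigned to Zfp998, at 37.1 ± 7.50 CPM against 44.4 ± 6.05 in the knockouts. An intergenic region at 62304314 assigned to Gm3604 had 32.5 ± 2.82 and 33.7 ± 6.79 CPM. The 3′UTR of Zfp369, a zinc finger gene, followed at 65303403 to 65304024 with 26.5 ± 2.64 and 29.4 ± 4.82 CPM. In these 4 regions the genotypes differed by no more than the larger of their SDs.

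Per kb of region covered, Gm10775 was highest among symbols with at least 5 tested regions, at 32.1 CPM per kb. BC048507 (17.3), Zfp595 (17.1), Zfp369 (17.0) and Zfp759 (15.1) came next. The other 5 of the 10 highest were Gm5141, Zfp65, Nlrp4f, Zfp455 and Zfp712, between 13.5 and 14.3 CPM per kb. Zfp997 and Gm10772 lay below these, at 8.71 and 10.5 CPM per kb. The gene sums of these 10 symbols had log2 ratios of knockout over wild type between -0.12 and 0.24, where that of BC048507 includes 29 regions outside the interval.

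Counts per kb were compared between kinds of region within each library, a comparison of levels that the choice of interval did not use. Summed over regions, those in exons and UTRs held more counts per kb than intergenic regions. In wild-type replicates 3, 4 and 8 the 27 exon and UTR regions had 66.4, 72.6 and 59.3 counts per kb, and the 450 intergenic regions had 52.8, 55.0 and 49.3. In knockout replicates 4, 5 and 7 they had 71.5, 68.5 and 46.5, against 56.7, 45.8 and 40.7. The mean difference was 0.35 ± 0.13 on the log2 scale (SD, n = 6), positive in 6 of 6 libraries (two-sided exact permutation test by sign flips, p = 0.03125, the smallest that 6 libraries allow). All 6 libraries count the same regions, so this test measures consistency between libraries and not the spread between regions. The 3′UTR region of Zfp369 is 1 of the 27. It held 107 to 160 counts per library in 622 bp, at 44.9 CPM per kb. The comparison was not repeated without it, so the size of the difference and its sign in each library may rest on that region. With the median over regions in place of the sum, the difference was 0.21 (exact p = 0.0625). By class, 3′UTR regions held 15.6 and exons 13.5 CPM per kb, above intergenic regions at 10.9. The 2 regions in 5′UTRs were below, at 9.15. Regions assigned to Zfp symbols had 53.2 ± 6.88 counts per kb and the 421 others 50.7 ± 5.33 (SD, n = 6). That difference was 0.07 ± 0.05 on the log2 scale, positive in 5 of 6 libraries, and did not pass (exact p = 0.0625). The median over regions gave 0.082 (exact p = 0.03125), and regions of 500 bp or more gave 0.0070 (exact p = 0.875). These were the 2 level comparisons made. Adjusted over the pair by Benjamini-Hochberg, the exact p was 0.0625 for each.

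**Figure D1:**
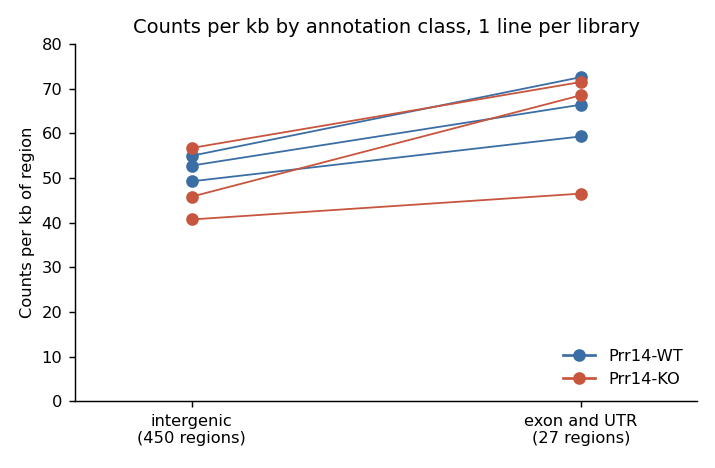
Counts per kb of region (vertical axis) in intergenic regions and in exon and UTR regions of the interval, with 1 line for each library. All 6 lines rise, from 40.7 to 56.7 counts per kb at intergenic regions to between 46.5 and 72.6 at exons and UTRs.

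As a whole, the interval's counts overlapped between the genotypes. Its sum was 3540 ± 203 CPM in Prr14-WT and 3460 ± 438 in Prr14-KO (SD, n = 3), a log2 ratio of -0.04. The knockout libraries spread more widely than the wild types, with replicate 4 at 3872, replicate 5 at 3510 and replicate 7 at 2999.6 CPM. The 3 wild-type libraries lay between 3378 and 3767 CPM. Along the interval, a stretch of 800 kb stood apart.

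Between 65.7 and 66.5 Mb, every 100 kb window was lower in the knockouts. The stretch is the longest run of adjacent windows of the interval with a log2 ratio of -0.40 or less, a rule made after the values were seen. The 88 regions of the stretch together held 2065, 2161 and 1846 counts in wild-type replicates 3, 4 and 8. Knockout replicates 4, 5 and 7 held 1450, 1052 and 953. The lowest wild-type library held more counts than the highest knockout library. In CPM the stretch stood at 431 ± 33.3 in Prr14-WT and 258 ± 47.3 in Prr14-KO (SD, n = 3), a log2 ratio of -0.75. The other 582 regions stood at 3109 ± 170 and 3203 ± 395 CPM, a log2 ratio of 0.04. Relative to the wild-type mean, the stretch was at 0.721 in knockout replicate 4, 0.564 in replicate 5 and 0.509 in replicate 7, while the rest of the interval was at 1.15, 1.05 and 0.894.

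As a share of the interval's counts, which needs no scaling between libraries, the stretch held 12.4%, 12.3% and 11.8% in the wild types. It held 8.02%, 6.93% and 7.32% in knockout replicates 4, 5 and 7. The wild-type mean was 12.2% ± 0.325 and the knockout mean 7.43% ± 0.554 (SD, n = 3), and the groups did not overlap. The log2 of stretch over rest had a mean difference, knockout minus wild type, of -0.79, with a pooled SD of 0.09. Knockout replicate 4, the library with the most counts of the knockouts, was nearest to the wild types on each of these scales except the rest of the interval, where it was farthest above them.

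**Figure D2:**
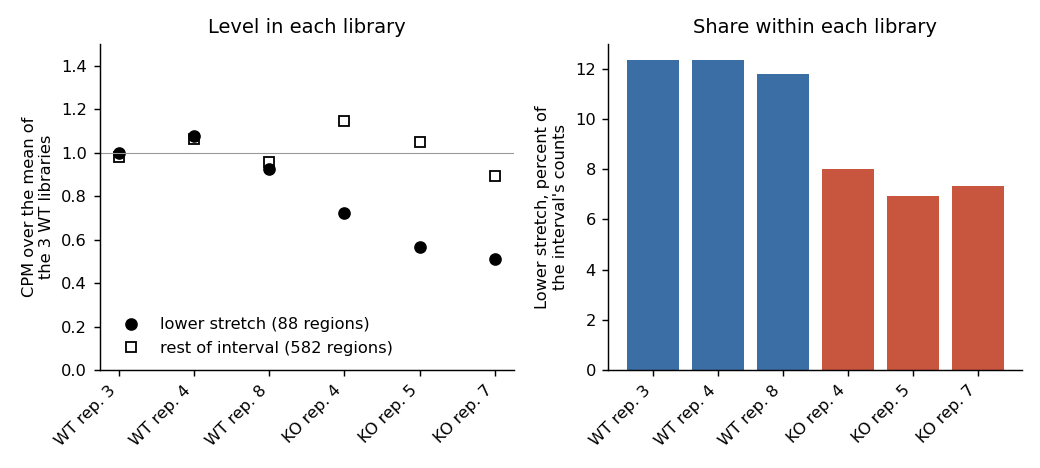
Left, CPM of the 800 kb stretch (filled circles) and of the rest of the interval (open squares) over the mean of the 3 wild-type libraries. Right, the share of the interval's counts that lies in the stretch. The wild types hold 11.8% to 12.4% there and the knockouts 6.93% to 8.02%.

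The 8 windows of the stretch had log2 ratios between -0.89 and -0.53. Of the 8, 1 had a mean under 20 CPM, at 65.8 to 65.9 Mb (10.3 CPM, -0.81). The 51 other windows ran from -0.34 to 0.98, and the 40 of them with a mean of at least 20 CPM from -0.33 to 0.24. In 7 of the 8 windows all knockout libraries were below all wild types, against 2 of the 51 other tested windows and 3.96% of windows over the genome. The exception was the window from 66.0 to 66.1 Mb, with 42.3, 46.5 and 37.8 CPM in the wild types and 39.9, 23.4 and 25.1 CPM in the knockouts. There, knockout replicate 4 lay among the wild types. The lowest ratio, -0.89 (SE 0.12), was at 66.2 to 66.3 Mb, with 522, 538 and 479 wild-type and 347, 225 and 223 knockout counts. The window with the most counts of the interval lay outside the stretch, at 65.2 to 65.3 Mb, and had a ratio of 0.01.

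Of the 59 windows of the interval, 5 passed an edgeR adjusted p of 0.05, all in the stretch, where 0.058% of windows over the genome did (14 of 24143). The contrast chose this interval, so nothing is read from that count. In the other 51 windows edgeR, DESeq2 and limma-voom called 0, and 3 had an unadjusted edgeR p under 0.05. When wild-type replicate 4 or either of knockout replicates 5 and 7 was left out, 3 windows passed in place of 5. Over the genome, this was the longest run of adjacent windows with log2 ratios of at least 0.4 in size and of the same sign. It had 8 windows, and the next longest had 4, on chromosome 4 from 41.3 to 41.7 Mb, higher in the knockouts. Runs of 3 or more numbered 4 lower and 13 higher.

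**Figure D3:**
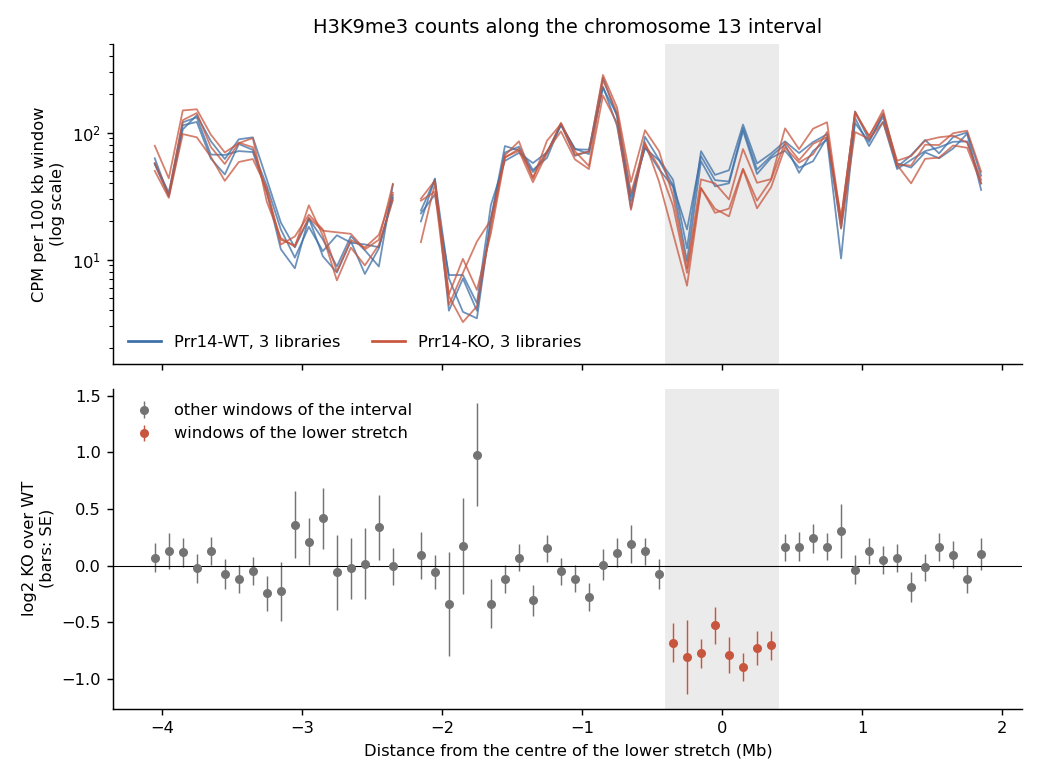
Top, CPM of each 100 kb window in the 6 libraries on a log scale, by distance from the centre of the stretch. Bottom, the log2 ratio of knockout over wild type of each window, with bars for the SE. The 8 windows of the shaded stretch lie between -0.89 and -0.53, and the 40 other windows with a mean of at least 20 CPM lie between -0.33 and 0.24.

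Near both edges the ratio changed sign between neighbouring fitted regions, which were picked for this after their values were seen. The left pair lies before the edge at 65.7 Mb, and the right pair lies inside the edge at 66.5 Mb. On the left, the region at 65680977 to 65682676 held 31, 34 and 29 wild-type and 53, 36 and 50 knockout counts, a log2 ratio of 0.64. The next fitted region, at 65688764 to 65689446, held 24, 37 and 34 wild-type and 19, 20 and 7 knockout counts, a ratio of -0.97. In the first the knockouts were all above the wild types, and in the second all below. On the right, the region at 66497436 to 66497633 held 16, 20 and 21 against 14, 14 and 4 counts, a ratio of -0.75. The region after it, at 66498825 to 66499468, held 52, 46 and 32 against 64, 43 and 44, a ratio of 0.29. Its genotypes overlapped. Over the 800 kb before the stretch the median ratio of 100 tested regions was 0.03, and 48 were below 0. Over the 800 kb after the stretch the median of 104 was 0.12, and 37 were below 0. Ratios of both signs were thus common outside the stretch, and these pairs do not place its edges.

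The lower counts were spread over the regions of the stretch rather than held by a few. The stretch was chosen for its low windows, so ratios below 0 in its regions follow in part from that choice. Of the members, 545 passed the filter on low counts (81.3%, against 75.9% of all regions), 63 of them in the stretch. A region can pass through the genotype in which it is high, so the sums above use all 88. Of these 88, 79 had a log2 ratio below 0 in the authors' deposited table. Among the 63 tested regions the median log2 ratio was -0.69, with quartiles at -1.07 and -0.44, and 57 were below 0. Among the 482 tested regions elsewhere in the interval the median was 0.05 and 215 were below 0. Over all regions tested the median was 0.0039, and 49.7% were below 0. All knockouts were below all wild types in 32 of the 63 and in 19 of the 482. That pattern was found in 4.91% of regions over the genome (7544 of 153789). The opposite order was found in 0 of the 63, in 25 of the 482 and in 7221 of the 153789 over the genome.

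Summed counts were lower in the knockouts in each kind of region of the stretch that was looked at. The log2 ratio was -0.85 for the 58 regions under 4 CPM and -0.69 for the 30 at or above it. Regions of 500 bp or more stood at -0.69 and shorter ones at -0.81. The 82 intergenic regions stood at -0.73, and the other 6 at -1.08. Regions assigned to Zfp symbols stood at -0.71 and the others at -0.82. Differences between these subsets were not tested.

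**Figure D4:**
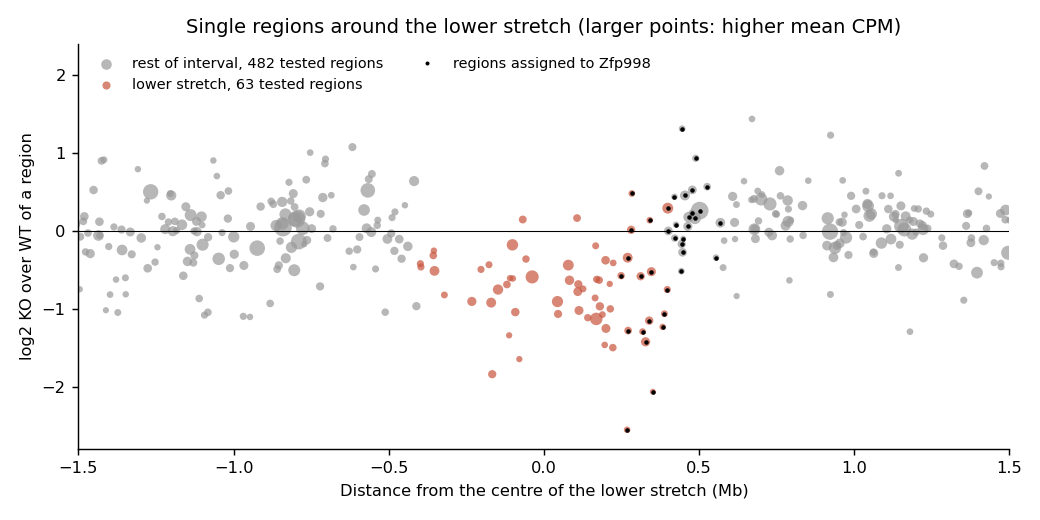
Log2 ratio of knockout over wild type of each tested region within 1.5 Mb of the centre of the stretch, with point size by mean CPM and black dots for regions assigned to Zfp998. Of the 63 regions in the stretch 57 lie below 0, and the regions of Zfp998 fall on both sides of its right edge.

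A single member passed the test across regions, where 0.013% of all regions did (20 of 153789). It is an intergenic region at 66268124 to 66269210, at -41094 bp from the start of Gm10772, a predicted gene. It held 96, 92 and 85 wild-type counts and 48, 31 and 39 knockout counts, in the order of replicates given above. The genotypes did not overlap, at 19.4 ± 0.896 against 8.81 ± 1.57 CPM (SD, n = 3). Its log2 ratio was -1.13 (SE 0.24, edgeR adjusted p = 0.0230). In the authors' deposited table its log2 ratio is -1.18 with an adjusted p of 0.0982. No member, 0 of the 571 with an adjusted p in the authors' deposited table, is under 0.05 there. DESeq2 and limma-voom each called this member and no other, and no member was called when any 1 library other than knockout replicate 4 was left out.

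Among tested regions with a mean of at least 5 CPM, the 8 lowest ratios of the interval all lay in the stretch. The lowest was at 65933080 to 65933837, an intergenic region at -186088 bp from the start of Zfp997. It held 40, 42 and 29 wild-type and 9, 9 and 11 knockout counts, a log2 ratio of -1.84 (SE 0.43). An intron region of Zfp998 at 66426955 to 66428112 held 45, 50 and 44 against 24, 7 and 18, a ratio of -1.43 (SE 0.35). The region at 66438698 to 66439728, annotated 1865 bp from a start of the same gene, held 26, 38 and 38 against 7, 20 and 16, a ratio of -1.15 (SE 0.40). In all 3 the knockouts lay below the wild types without overlap, and none passed after adjustment. The other 4, beside the called region, had ratios from -1.25 to -0.97 and were intergenic, assigned to Gm10772 or Zfp997.

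With the same limit of 5 CPM, the 6 highest ratios lay outside the stretch, between 0.53 and 0.87, and none passed. Without that limit, ratios outside the stretch reached 1.44. The region at 67679923 to 67680722, near the start of the zinc finger gene Zfp738, held 18, 16 and 19 wild-type and 32, 32 and 28 knockout counts. Its genotypes did not overlap, at a ratio of 0.87 (SE 0.39). An intron region of 6720489N17Rik at 62612444 to 62613642 held 29, 33 and 39 against 66, 63 and 42, a ratio of 0.83 (SE 0.28). In the rest of the interval edgeR, DESeq2 and limma-voom called 0 of 482 regions, and 26 had an unadjusted edgeR p under 0.05 (5.39%, against 3.86% of all regions).

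Summed by gene symbol, the stretch falls mainly to Zfp997 and Gm10772, which chose the interval. Zfp997 encodes a zinc finger protein. Its 27 regions, from 65824581 to 66145914, were all intergenic, and none overlapped the gene, which the authors' annotation places at 66119547 to 66122836. They held 695, 724 and 615 wild-type and 493, 338 and 338 knockout counts. All knockouts were below all wild types, at 144 ± 11.5 and 87.2 ± 15.9 CPM (SD, n = 3), a log2 ratio of -0.74 (SE 0.11). Gm10772 also had 27 regions, from 66178293 to 66323361, with 699, 726 and 628 wild-type and 465, 319 and 310 knockout counts. Its levels were 146 ± 10.3 and 81.6 ± 15.7 CPM, a ratio of -0.85 (SE 0.11). Both passed in the fit over gene sums, in which 0.0393% of symbols did (6 of 15266). Without knockout replicate 4 the ratios were -0.93 for Zfp997 and -1.05 for Gm10772.

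Regions assigned to Zfp998, a zinc finger gene from 66418114 to 66441118, fell on both sides of the right edge. The gene itself lies inside the stretch, and 3 of its 45 regions overlap it. Its 22 regions in the stretch stood at 101.4 ± 8.90 CPM in Prr14-WT and 64.1 ± 9.68 in Prr14-KO, a log2 ratio of -0.67. Its 23 regions outside stood at 130.1 ± 16.4 and 149 ± 22.6 CPM, a ratio of 0.19. The sum over all 45 regions, at -0.14 (SE 0.09), did not pass and shows neither. Regions assigned to Gm10139, a gene that lies outside the stretch, fell on both sides of the left edge. Their ratio was -0.72 over 12 regions inside and 0.08 over 39 outside. Of the 27 RefSeq genes in the stretch, 6 are protein coding and 14 are pseudogenes, 6 of them of the Vmn2r type.

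Summed over the regions in a gene's span, RefSeq genes of the stretch that were looked at had lower counts in the knockouts, though single regions in them did not all do so. At Vmn2r-ps98, a vomeronasal receptor pseudogene, 8 regions held 122, 122 and 112 wild-type and 103, 68 and 52 knockout counts. At Gm26715, 8 regions held 186, 199 and 142 against 135, 108 and 85. At 2410141K09Rik, 3 regions held 85, 95 and 94 against 37, 49 and 40. In each of these 3 genes the knockouts lay below the wild types without overlap. They were picked after their values were seen, from the 10 RefSeq genes of the stretch with a region. Of the same 10, Gm46425, Gm40987, Rybp-ps, Gm17514 and LOC115488129 had that order as well. The share of genes elsewhere with that order was not computed. At Gm17353, a protein-coding gene, the single region held 28, 17 and 9 against 13, 12 and 11, and the genotypes overlapped. They also overlapped at Gm33043, a long non-coding RNA gene, where 1 region held 52, 37 and 38 against 47, 18 and 30. Gm33043 lies inside the span of Gm26715, so its region is also among the 8 of Gm26715.

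**Figure D5:**
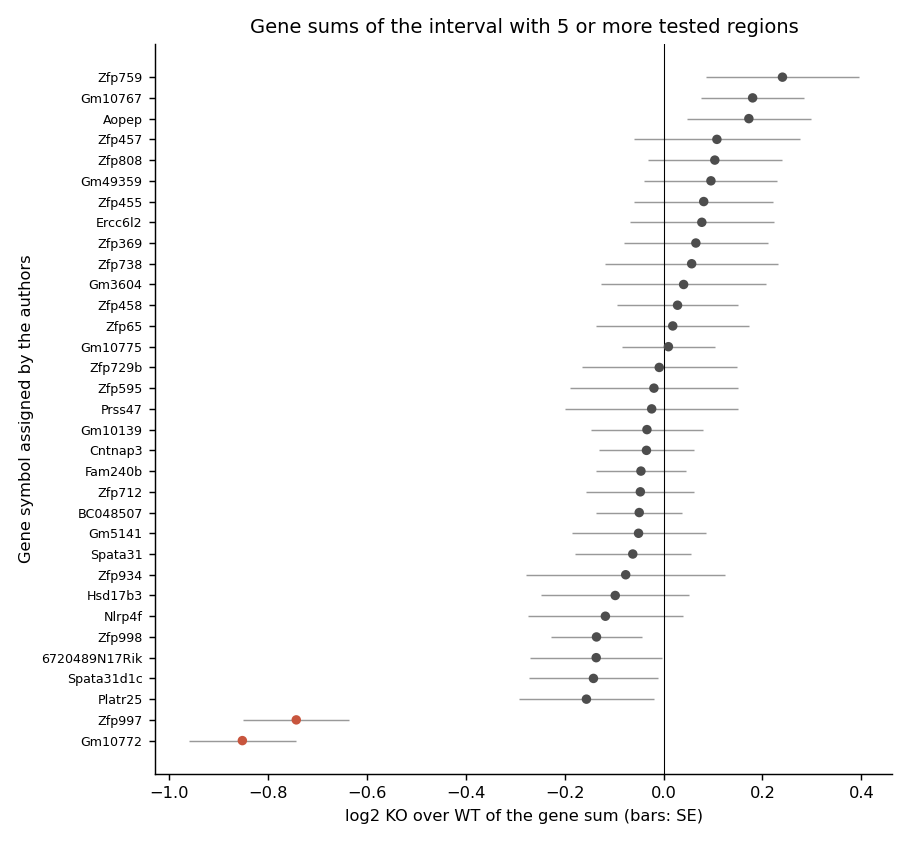
Log2 ratio of knockout over wild type for the gene sums of the 33 symbols with at least 5 tested regions, with bars for the SE. Zfp997 and Gm10772 lie at -0.74 and -0.85, and the next lowest, Platr25, at -0.16.

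Zinc finger genes elsewhere in the interval had ratios on both sides of 0, and none passed. Of 60 tested symbols with all their regions in the interval, 2 had all knockouts below all wild types and 2 passed, in both counts Zfp997 and Gm10772. That order was found in 4.91% of regions and 3.96% of windows over the genome, which are other units than symbols. Its share of symbols was not computed, so nothing is read from that count of 2. Of the other 58 symbols, edgeR, DESeq2 and limma-voom called 0, and 2 had an unadjusted edgeR p under 0.05. Among the 26 tested Zfp symbols 14 were below 0, with a median of -0.01, and without Zfp997 they ran from -0.38 (Zfp459) to 0.43 (Zfp729a). Among the 34 others 19 were below 0, with a median of -0.03, and the median over all symbols tested was 0.0016. Of symbols with at least 5 tested regions, the highest were Zfp759 (0.24, SE 0.15), Gm10767 (0.18, SE 0.10) and Aopep, an aminopeptidase gene (0.17, SE 0.13). After Gm10772 and Zfp997, the lowest were Platr25 (-0.16, SE 0.14), Spata31d1c (-0.14, SE 0.13) and 6720489N17Rik (-0.14, SE 0.13).

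Within 1 kb of the starts of zinc finger genes, 16 regions were tested, and edgeR, DESeq2 and limma-voom called 0 of them, with 1 at an unadjusted edgeR p under 0.05. Levels were low, between 1.53 and 7.06 CPM on average in either genotype. Ratios ran from -1.30 at Zfp458, in the second of its regions, to 0.62 at Zfp369. The Zfp458 region, at 67279413 to 67279634, held 20, 19 and 14 wild-type and 2, 14 and 4 knockout counts. Its genotypes overlapped, since wild-type replicate 8 and knockout replicate 5 held 14 counts each. At Zfp998, the promoter region in the stretch held 14, 7 and 12 against 6, 22 and 6, a ratio of 0.14.

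Neighbouring genes in or near the interval, mostly of other families, were read as gene sums too. The list had 21 symbols rather than 21 genes. Among them were the zinc finger gene Zfp367, and 2010111I01Rik and Papd7, which had no region and no RefSeq span. Of the 21 symbols, 10 have regions in the interval, 16 were tested and edgeR, DESeq2 and limma-voom called 0, with 0 at an unadjusted p under 0.05. They ran from -0.61 (SE 0.37) at Fbp2, a gluconeogenic enzyme of muscle, to 0.19 (SE 0.19) at Ptch1, the Hedgehog receptor. Of 12 genes of the KRAB silencing machinery, none lies in the interval, 7 were tested, and the same tools called 0, with 1 at an unadjusted edgeR p under 0.05. Ratios there ran from -0.22 at Smarcad1 to 0.31 at Suv39h2. Of 10 cathepsin genes, all tested, 1 (Ctsl) lies in the interval, and the tools called 0, with 1 at an unadjusted p under 0.05. The sum of Ctsl, the gene of the lysosomal protease cathepsin L, held 19, 16 and 21 wild-type and 20, 60 and 25 knockout counts. Its ratio of 0.97 (SE 0.44) was the highest of the list and did not pass, and the genotypes overlapped. The lowest of the list was -0.51. The same tools called 0 of 5 tested muscle fibre genes (1 unadjusted) and 0 of 6 markers of other cells (0 unadjusted).

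The symbols whose CPM over the 6 libraries was most like that of Zfp997, among 4402 symbols with at least 10 regions, were Gm10772 (r = 0.998), Cnot2 (0.993), Gm21663 (0.980), Mug2 (0.962) and Cypt14 (0.958). These correlations share libraries and scaling, and are a description. Cnot2, a subunit of the CCR4-NOT complex, had a log2 ratio of -0.17, and Gm21663, Mug2 and Cypt14 had ratios from -0.26 to -0.21. For Zfp998 the correlation with Zfp997 was 0.688.

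Other zinc finger clusters served as a comparison of level and spread. On chromosome 4, 301 regions between 145078882 and 147996166 summed to 3242 ± 135 CPM in Prr14-WT and 3341 ± 371 in Prr14-KO (SD, n = 3). Their median ratio was 0.07. On chromosome 5, 220 regions between 109001547 and 110974585 had a median of -0.07, and 2 were called. On chromosome 2, 70 regions between 175041745 and 177988719 had a median of -0.01. Covered sequence held 17.3, 12.7 and 9.49 CPM per kb in these 3 clusters, and 11.3 in the chromosome 13 interval. The stretch held 9.21 and the rest of the interval 11.6. Whether the stretch differs from these clusters was not tested.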

How the data were processed

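H3K9me3 CUT&Tag of quadriceps femoris gave 6 libraries, 3 Prr14-WT and 3 Prr14-KO, grouped by the genotype labels. Per the file headers, the authors deposited a whole-number count per library for each of 202553 regions, read here as raw counts. They also deposited a normalised signal, the count divided by 1 factor per library, used here as an alternative scale. The authors' deposited table also gives a log2 ratio (knockout over wild type, from its sign) and an adjusted p-value, which were copied. Tools named in the submitters' processing notes are DESeq2 1.6.3, BWA, Trimmomatic, bedtools, MACS2 and deepTools, with the build GRCm38. Settings, the treatment of reads with several alignments, whether regions were called on pooled libraries, and whether positions count from 0 or 1 are not given in the sources used here. Positions are printed as in the table.

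Counts of all regions, of gene symbols as the authors assign them and of 100 kb windows (by region midpoint) were fitted with edgeR 4.0.16 in R 4.3.3. The filterByExpr function (minimum count 10, minimum total 15) took out low features, libraries were scaled by TMM, and the robust quasi-likelihood test was adjusted by Benjamini-Hochberg over all features of a kind, with a threshold of 0.05. Library totals ran from 4324444 to 4756133 counts. At these totals the SE of a log2 ratio differed by region. It was 0.24 at the called region, 0.14 at the region of highest mean CPM and 0.63 at the promoter region of Zfp998. The fits were tested on simulated data. Values with SD are CPM on TMM-scaled totals. Alternatives were DESeq2 1.42.0, limma-voom (limma 3.58.1), RLE factors, library totals, other count filters, subsets of regions and leaving out each library.

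The members and the lists were chosen with earlier results of these data known. Zinc finger genes were taken as symbols starting with Zfp, without a check of protein motifs. Named symbols were Zfp997 and Gm10772, the 10 highest per kb, the 8 lowest and 8 highest ratios with at least 5 tested regions, and lists of neighbours, KRAB silencing genes and cathepsins. Named regions were those past the threshold, the 6 highest, the 8 lowest and 6 highest ratios at a mean of at least 5 CPM, and tested promoters of zinc finger genes. The stretch, its edges, genes inside it and the splits of Zfp998 and Gm10139 were chosen after their values were seen. Promoter windows and gene spans are RefSeq's (GRCm38.p6), and identity is 100% less the edit distance over 300 bases (edlib 1.3.9).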

Additional observations from a re-analysis of the deposited data

How the results depend on the processing

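The ratio of the stretch to the rest of the interval ran from -0.85 to -0.73 in the 9 alternatives that could move it. All 9 were added after the data were seen. The stretch was defined by low ratios in these same libraries, so its sign is a description. Leaving out 1 library could not change that sign, because all knockouts lay below all wild types. The authors' normalised signal cannot move a ratio within a library. The interval total moved by less than 1 SD in 14 of 14, from -0.13 to 0.06. The count of 2 gene sums held in 12 of 12 alternatives. Those are Zfp997 and Gm10772, whose counts in these same libraries chose the interval, so that count is a description too. The count of called regions was 0 without the stretch and ran from 0 to 1 when a library was left out. For windows that range was 3 to 7. With exons and UTRs against intergenic regions, the median over regions gave 0.21 (exact p = 0.0625), and leaving out a library gave 0.30 to 0.38, where 5 libraries cannot give an exact p under 0.0625. With zinc finger symbols against others, the median gave 0.082 (exact p = 0.03125) and regions of 500 bp or more gave 0.0070 (exact p = 0.875). Zfp997 and Gm10772 moved to -0.93 and -1.05 without knockout replicate 4. The SE of the log2 ratio was 0.24 at the called region and 0.43 at the region of the lowest ratio at 5 CPM or more, so ratios of single regions are imprecise. No paired analysis was possible because the genotypes share only replicate number 4.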
